A study of Homo sapiens with 12 samples.

Results

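The comparison is between 2 control states of the lung adenocarcinoma line A549, which is of human origin: the libraries that serve as control for NR0B1 overexpression and those that serve as control for NR0B1 knockdown. NR0B1 (DAX1) is an orphan nuclear receptor that mostly represses transcription. The 6 control libraries, 3 of each kind, were taken by their labels out of 12. The other 6 libraries are A549 cells overexpressing NR0B1 and A549 cells in which NR0B1 was knocked down. Both controls carry the genotype label wild type, 1 as overexpression control and 1 as knockdown control, and the treatment is given as none; the knockdown control libraries are titled shNC. The sources used here give no vector, hairpin sequence, selection, passage or library date. What separates the 2 controls is therefore everything that was done differently in the 2 arms, and these steps cannot be told apart. Nothing says whether the 3 libraries of a group came from separate cultures, so p-values measure only the spread between these samples.

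Lysosomes break down proteins, lipids and glycans with acid hydrolases, which need an acidic lumen kept by a proton pump. Drug metabolism works in stages: cytochromes P450 and other oxidoreductases modify a compound, conjugating enzymes attach a polar group, and transporters export the product. A549 cells carry a KEAP1 mutation that leaves NRF2 active, and NRF2 drives many of these enzymes. Ribosome biogenesis starts with RNA polymerase I in the nucleolus and needs a large set of assembly factors, many of them targets of MYC. The spliceosome removes introns with small nuclear ribonucleoproteins, guided by SR and hnRNP proteins. Interferons act through JAK kinases and transcription factors such as STAT2 and IRF9 on antiviral effector genes and on class I antigen presentation.

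The control libraries held between 15477651 and 18900879 expected counts. Of 11908 genes tested, 3973 were called, that is, had a Benjamini-Hochberg adjusted p under 0.05 in the quasi-likelihood test of edgeR (33.4%): 2051 were higher in the overexpression control (17.2%) and 1922 lower (16.1%). A difference of 2-fold or more was called for 796 higher genes (6.68%) and 532 lower genes (4.47%), and the 3 and 3 libraries did not overlap for 3253 higher genes (27.3%) and 3177 lower genes (26.7%). Overexpression control replicate 1 stood apart from its group: its log2 CPM correlated with replicates 2 and 3 at Pearson's r of 0.9396 and 0.9345 across genes, against 0.9763 between replicates 2 and 3 and at least 0.9753 within the knockdown control. Without it 4379 genes were called (36.8%), of which 3479 were shared with the full fit. Knockdown replicate 2 also stood apart from its group, and it enters the estimate of the spread that all groups share; without it 4920 genes were called (41.3%; 21.0% higher and 20.3% lower). Values below are CPM, counts scaled to a common library size, and log2 differences are overexpression control minus knockdown control with an approximate standard error (SE). The median log2 difference of all genes tested was 0.01.

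The labelled cell type was checked with markers. The 14 A549 epithelial markers summed to between 22800 and 26200 CPM in the overexpression control and between 21700 and 23400 in the knockdown control. Alveolar, fibroblast, immune and endothelial markers were mostly at background: 7 of 10, 7 of 10, 8 of 10 and 6 of 8 were under 1 CPM in every control library, and the immune markers PTPRC, CD3E, CD3D, MS4A1 and NKG7 were at 0. The surfactant genes that define alveolar type II cells were among those under 1 CPM. Of the epithelial markers, CDH1, the adhesion protein E-cadherin, was higher in the overexpression control at 319 ± 23.4 CPM against 116 ± 10.2 (SD, n = 3), and KRT7 was lower at 1490 ± 168 against 3070 ± 68.4 (SD, n = 3). Among the immune markers CD14 was the one called, at 9.28, 8.74 and 8.59 CPM against 1.58, 1.25 and 0.84. The 10 immune markers summed to between 13.6 and 16.3 CPM in the overexpression control and between 5.22 and 5.69 in the knockdown control, the 10 alveolar markers to between 30.5 and 79.6 against 13.6 to 25.8, the 10 fibroblast markers to between 1.02 and 2.84 against 4.34 to 6.17, and the 8 endothelial markers to between 36.8 and 44.5 against 32.9 to 35.4. The endothelial marker called, ESAM, went against that sum: it was lower in the overexpression control, at 0.509, 0.928 and 0.521 CPM against 3.35, 6.11 and 5.15 (log2 difference -2.87, adjusted p = 0.000818). The part of these markers in the results was not tested.

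NR0B1 (ENSG00000169297, GRCh38 chromosome X, 30304206 to 30309598) was itself unequal between the controls. It stood at 17.9, 60.1 and 55.2 CPM in overexpression control replicates 1, 2 and 3 and at 16.3, 21.1 and 13.3 CPM in the knockdown control. Replicate 1 of the overexpression control lay within the range of the knockdown control, and the other two lay above it. The log2 difference was 1.39 (SE 0.39, adjusted p = 0.0189), but the call ended without overexpression control replicate 2 (adjusted p = 0.0742) or 3 (0.0655) and without knockdown control replicate 1 (0.0639) or 3 (0.0782). Without overexpression control replicate 1 the log2 difference was 1.77 (adjusted p = 0.000912).

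**Figure D1:**
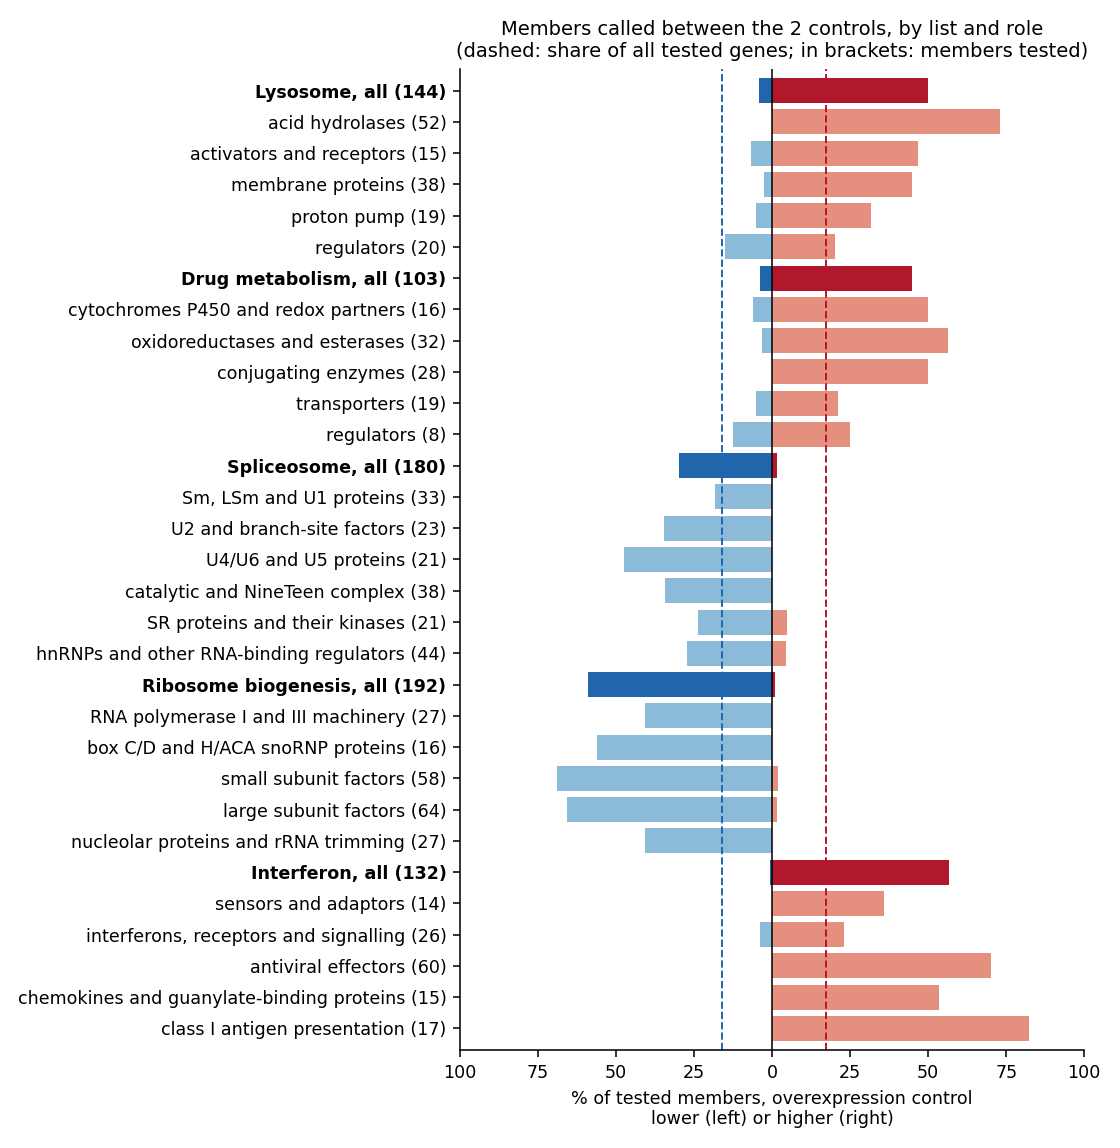
Share of the tested members of each list and role (number tested in brackets) called lower (bars to the left) or higher (bars to the right) in the overexpression control, in percent. Dashed lines mark the shares over all genes tested, 16.1% lower and 17.2% higher; lysosome, drug metabolism and interferon lists extend to the right, spliceosome and ribosome biogenesis lists to the left.

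Lysosomal genes were mostly higher in the overexpression control. Of 156 genes listed, 144 were tested, 72 were called higher (50%, against 17.2% of all genes) and 6 lower (4.17%, against 16.1%), and the median log2 difference was 0.495. The difference was greatest in number for acid hydrolases: 38 of 52 were called higher and 0 lower, with a median of 0.768. Activators and receptors had 7 of 15 called higher, membrane proteins 17 of 38, proton pump subunits 6 of 19 and regulators 4 of 20. Without overexpression control replicate 1 the list had 66 higher and 11 lower members and a median of 0.476. The deposited table's own KEGG pathway column gives 108 tested lysosome genes, of which 54 were called higher and 5 lower.

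Among hydrolases, MAN2B1, lysosomal alpha-mannosidase (ENSG00000104774, GRCh38 chromosome 19, 12646511 to 12666742), was at 98.8, 99.7 and 97.9 CPM in the overexpression control and at 48.0, 46.9 and 46.9 CPM in the knockdown control. The groups were far apart and each was tight, with a log2 difference of 1.06 (SE 0.117, adjusted p = 0.000265). The cysteine protease gene CTSB, for cathepsin B, stood at 552, 516 and 583 CPM against 256, 252 and 223, a log2 difference of 1.18 (SE 0.159, adjusted p = 0.000618). TPP1, a peptidase that is lost in a childhood neuronal ceroid lipofuscinosis, was at 144 ± 7.98 CPM against 73.3 ± 6.88 (SD, n = 3). GALC, the galactosylceramidase, was at 57.4 ± 4.32 against 27.1 ± 0.702 CPM (SD, n = 3). For these 4 enzymes every overexpression control library lay above every knockdown control library, and the calls held without any 1 of the 7 libraries left out in turn (the 6 controls and knockdown replicate 2). Over the 38 hydrolases called, log2 differences ran from 0.43 for PPT1, a thioesterase that removes fatty acids from proteins, to 2.34 for CTSS, a cathepsin of antigen processing. The call of CTSS ended without knockdown control replicate 3 (adjusted p = 0.051) and that of PPT1 without knockdown control replicate 2 or 3 or overexpression control replicate 3 (up to 0.0921). CTSD, the aspartic protease cathepsin D, was higher in replicate 1 of the overexpression control than in the others, at 1070, 722 and 767 CPM against 435, 435 and 392.

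The proteins that help the hydrolases were higher as well. GM2A, the activator that lifts gangliosides out of the membrane, was at 39.1, 49.0 and 51.2 CPM against 17.8, 17.3 and 13.0, a log2 difference of 1.54 (SE 0.175, adjusted p = 0.000300). PSAP, the precursor of the saposins, was at 1520 ± 44.2 CPM against 892 ± 37.5 (SD, n = 3). LAPTM4A and LAPTM4B, membrane proteins of late endosomes and lysosomes, differed by 0.65 and 0.50 on the log2 scale. GGA3, an adaptor that sorts mannose 6-phosphate receptors, was the member of this role called lower, with a log2 difference of -0.51 (adjusted p = 0.00703).

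In the lysosomal membrane, ABCA2, a lipid transporter, was at 85.1, 132 and 129 CPM against 40.8, 45.8 and 36.2, a log2 difference of 1.5 (SE 0.206, adjusted p = 0.000669). CD164, the sialomucin endolyn, was at 191 ± 8.17 CPM against 109 ± 7.67 (SD, n = 3), and TPCN1, a cation channel, at 195 ± 47.2 against 96.0 ± 6.56. LAMP1, the textbook membrane marker, was not called: it was at 100, 75.9 and 95.3 CPM against 51.2, 76.8 and 71.4, the groups overlapped, and the adjusted p was 0.0775. TMEM192 was called lower (log2 difference -0.45, adjusted p = 0.0358), a call that ended without any of 4 libraries (knockdown control replicates 2 and 3, overexpression control replicates 2 and 3; adjusted p up to 0.126).

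The proton pump differed less. Its subunit gene ATP6V1F was at 98.3, 95.7 and 94.2 CPM against 54.3, 54.7 and 43.4, with a log2 difference of 0.92 (SE 0.117, adjusted p = 0.000472), and the accessory subunit gene ATP6AP2 differed by 0.56 (adjusted p = 0.000741). ATP6V0A2, a membrane subunit found mainly in Golgi and endosomes, was lower by -0.61 (adjusted p = 0.0217), which did not hold without knockdown control replicate 1 or 3 or overexpression control replicate 2 or 3 (adjusted p up to 0.0845). Of 19 subunits tested 12 were not called.

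Of 20 regulators tested, 4 were called higher (20.0%) and 3 lower (15.0%), close to the 17.2% and 16.1% of all genes. The single calls below are therefore not read as a result about regulators as a group. MITF, a transcription factor of the MiT/TFE family that activates lysosomal genes (chromosome 3, 69739435 to 69968337), was at 37.4, 38.9 and 43.3 CPM in the overexpression control and at 96.8, 88.9 and 122 CPM in the knockdown control. All 3 libraries of the overexpression control were thus below the other control, with a log2 difference of -1.37 (SE 0.183, adjusted p = 0.000599). TFE3, of the same family, was at 89.7 ± 13.0 against 142 ± 9.0 CPM (SD, n = 3; log2 difference -0.66, adjusted p = 0.0143; 0.0581 without overexpression control replicate 2). TFEB, the member best known for lysosomal control, was at 10.2, 10.5 and 11.4 CPM against 11, 12 and 12.1, and its adjusted p was 0.698. MAP1LC3B, the autophagosome protein LC3B, was called lower at an adjusted p of 0.0499, with overlapping groups; the call ended without any of 5 libraries (the 3 knockdown controls and overexpression control replicates 2 and 3), at adjusted p up to 0.161. WIPI1, which acts in autophagosome formation, was higher at 43.3 ± 10 against 14.0 ± 3.95 CPM (SD, n = 3), and LAMTOR5, a subunit of the Ragulator complex that holds mTORC1 on lysosomes, at 61.0 ± 6.81 against 36.5 ± 0.795. RRAGD and FNIP1, both in nutrient sensing at the lysosome, were called higher too (log2 differences 1.92 and 0.52), but each call ended without any of 5 libraries, at adjusted p up to 0.129 and 0.0993; overexpression control replicates 1 and 3 and knockdown control replicates 1 and 2 were among them for both.

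The promoters of lysosomal genes often hold the palindrome TCACGTGA, the core of the CLEAR element that MiT/TFE factors bind. Promoters are 300-base windows from RefSeq (GRCh38.p14), 250 bases before and 50 after the transcript start, searched on both strands; this element contains the E-box CACGTG. Of 111 tested lysosomal members with a window, 15 held it (13.5%), against 2.05% of the windows of all 9421 tested genes that have one. The members called higher held it about as often as the other members, at 7 of 54 (13.0%) and 8 of 57 (14.0%). A match is a run of letters and says nothing of binding. The 3 called members with the element and the smallest adjusted p are shown, from chr6:109382439-109382558 (minus strand) for CD164, chr16:5033906-5034012 (minus strand) for NAGPA and chr20:45891253-45891364 (plus strand) for CTSA, 5′ to 3′ along the gene with the element in capitals.
CD164: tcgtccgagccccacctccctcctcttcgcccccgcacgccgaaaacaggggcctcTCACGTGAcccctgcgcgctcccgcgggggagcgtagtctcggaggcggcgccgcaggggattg
NAGPA: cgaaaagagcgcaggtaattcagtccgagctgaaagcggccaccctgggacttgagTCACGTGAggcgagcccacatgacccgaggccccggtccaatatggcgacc
CTSA: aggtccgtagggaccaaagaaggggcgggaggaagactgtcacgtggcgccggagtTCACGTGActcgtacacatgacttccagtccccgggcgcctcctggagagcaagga

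The element starts 35, 21 and 26 bases before the transcript start in these windows. NAGPA, which uncovers the mannose 6-phosphate tag of hydrolases, was at 12.6, 15.6 and 14.6 CPM in the overexpression control and at 7.86, 7.83 and 7.09 CPM in the knockdown control. CTSA, the protective protein cathepsin A, was at 168, 154 and 152 CPM against 101, 98.4 and 83.5.

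Drug metabolism genes were the other large group of enzymes higher in the overexpression control. Of 179 genes listed, 103 passed the expression filter, as many enzymes of this list are liver genes. Of these, 46 were called higher (44.7%, against 17.2% of all genes) and 4 lower (3.88%, against 16.1%), with a median log2 difference of 0.563. Higher members made up 18 of 32 oxidoreductases and esterases, 14 of 28 conjugating enzymes and 8 of 16 cytochromes P450 with their redox partners, but 4 of 19 transporters and 2 of 8 regulators. Without overexpression control replicate 1 there were 45 higher and 7 lower members and the median was 0.378. In the deposited KEGG column, 14 of 22 tested genes of cytochrome P450 drug metabolism (63.6%) and 19 of 30 of xenobiotic metabolism (63.3%) were called higher and 0 lower. The pathway of other drug-metabolising enzymes had 8 higher (30.8%) and 7 lower (26.9%) of 26.

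Of the oxidoreductases, 3 aldo-keto reductases of the AKR1C family were higher. AKR1C3, which reduces steroids and prostaglandins (ENSG00000196139, chromosome 10, 5035354 to 5107686), was at 1180, 982 and 1070 CPM in the overexpression control and at 423, 390 and 428 CPM in the knockdown control. The log2 difference was 1.38 (SE 0.123, adjusted p = 0.000127) and 1.31 without overexpression control replicate 1. AKR1C2 and AKR1C1 were higher by 1.32 and 2.01 on the log2 scale; these paralogs share long stretches of sequence, so how the reads were divided among them is uncertain. AKR1C1 stood at 1040 CPM in overexpression control replicate 1 and at 492 and 568 CPM in replicates 2 and 3, against 181, 177 and 164 in the knockdown control. AKR1B10, an aldo-keto reductase of another family, was not called, at 3630, 2290 and 2690 CPM against 2240, 2280 and 2080 (adjusted p = 0.248).

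ALDH3A1, which oxidises aromatic and lipid aldehydes, was at 3260, 4540 and 4090 CPM against 1800, 1740 and 1440 (log2 difference 1.25, adjusted p = 0.000657). DHRS9, a retinol and steroid dehydrogenase, was at 14.8, 16.7 and 21.0 CPM against 1.82, 1.54 and 2.47, the largest log2 difference of the role at 3.16 (SE 0.399, adjusted p = 0.000464). NQO1, the quinone reductase, was at 1470 ± 74.5 against 985 ± 20.0 CPM (SD, n = 3; adjusted p = 0.0130; 0.0506 without knockdown control replicate 2). CES1, a carboxylesterase that activates prodrugs, went the other way at 0.509, 0.546 and 0.651 CPM against 2.88, 3.08 and 2.73, a log2 difference of -2.33 (SE 0.316, adjusted p = 0.000626).

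The cytochrome P450 called with the smallest adjusted p was CYP1B1, an enzyme of oestrogen and hydrocarbon oxidation, at 612, 700 and 808 CPM against 351, 375 and 326 (log2 difference 1.01, SE 0.201, adjusted p = 0.00381). CYP4F11, a fatty acid hydroxylase, was at 69.4 ± 21.1 against 32.6 ± 3.75 CPM (SD, n = 3). CYP2U1 and the electron carrier CYB5A were called higher, and CYP51A1, the sterol demethylase, lower; these 3 calls did not outlast every omission of a library. The call ended for CYP2U1 without knockdown control replicate 3 (adjusted p = 0.0627), for CYB5A without knockdown control replicate 2 or 3 (up to 0.0649) and for CYP51A1 without any of 5 libraries (up to 0.156), the 3 knockdown controls and overexpression control replicates 2 and 3.

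Glutathione and glucuronic acid conjugation were both represented among the higher conjugating enzymes. MGST2, a microsomal glutathione transferase, was at 36.1, 31.3 and 33.6 CPM against 12.7, 12.7 and 13.1 (log2 difference 1.39, SE 0.154, adjusted p = 0.000266). MGST3 was at 76.7 ± 4.12 against 41.5 ± 1.80 CPM and GSTO1, an omega-class glutathione transferase, at 61.9 ± 5.94 against 32.1 ± 3.28 (SD, n = 3). UGT1A1, the bilirubin glucuronosyltransferase (ENSG00000241635, chromosome 2, 233760248 to 233773299), was at 181, 52.3 and 67.7 CPM against 7.45, 8.6 and 7.19. Overexpression control replicate 1 was the highest, and without it the log2 difference fell from 3.70 to 2.95. The UGT1A genes share their last exons, so values for single UGT1A members are uncertain.

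Of 19 transporters 4 were called higher (21.1%) and 1 lower (5.26%), and of 8 regulators 2 were higher (25.0%) and 1 lower (12.5%), against 17.2% and 16.1% of all genes. ABCC5, an exporter of cyclic nucleotides and conjugates, was at 34.1 ± 2.60 against 17.4 ± 2.46 CPM, ABCC3 at 1100 ± 180 against 730 ± 17.4 and SLCO3A1 at 66.1 ± 1.53 against 44.2 ± 4.15 (SD, n = 3). ABCC1 was called higher at an adjusted p of 0.0291, which ended without overexpression control replicate 1 (0.0932) or any 1 knockdown control. SLC22A5, the carnitine transporter, was lower at 20.8, 20.9 and 17.4 CPM against 37.1, 38.4 and 38.4 (log2 difference -0.95, adjusted p = 0.00141). NFE2L2, the gene of NRF2, was lower at 243, 167 and 189 CPM against 356, 329 and 326 (log2 difference -0.76, SE 0.18, adjusted p = 0.00914). ARNT, the partner of the aryl hydrocarbon receptor, was higher by 0.59 (adjusted p = 0.00564). The nuclear receptor RXRA was called higher with overlapping groups (adjusted p = 0.0358), a call that ended without any of 5 libraries, the 3 knockdown controls and overexpression control replicates 2 and 3 (up to 0.145).

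The core of the antioxidant response element that NRF2 binds, TGACNNNGC, was in 13 of 78 drug metabolism windows (16.7%) against 15.1% of all tested genes. It was in 8 of 34 members called higher (23.5%) and in 5 of 44 others (11.4%). The core of the xenobiotic response element, GCGTG, was in 35 of 78 windows (44.9%) against 51.6% of all tested genes, in 14 of 34 members called higher (41.2%) and in 21 of 44 others (47.7%). Both were searched on both strands. Among called members with the antioxidant response core, DHRS9 had the smallest adjusted p. Its window (chr2:169066858-169066977, plus strand) is shown with the core in capitals, 163 bases before the start. GSTO1 and GSTA4 came next by that rule, and their windows are not shown.
DHRS9: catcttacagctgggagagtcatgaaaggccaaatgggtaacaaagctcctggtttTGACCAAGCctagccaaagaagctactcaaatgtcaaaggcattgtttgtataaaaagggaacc

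Ribosome biogenesis genes were lower in the overexpression control. Of 199 genes listed, 192 were tested; 113 were called lower (58.9%, against 16.1% of all genes) and 2 higher (1.04%, against 17.2%), with a median log2 difference of -0.609. Factors of both subunits had the greatest shares: 40 of 58 for the small and 42 of 64 for the large subunit were lower. The proteins of box C/D and H/ACA ribonucleoproteins, which guide rRNA modification, had 9 of 16 lower, and RNA polymerase I and III machinery and nucleolar and trimming proteins 11 of 27 each. Without overexpression control replicate 1 there were 123 lower and 1 higher, and the median was -0.714. The deposited KEGG column gave 36 lower (50.7%) and 1 higher (1.41%) of 71 tested. The ribosomal proteins themselves (KEGG ribosome) had 11 lower (8.59%) and 8 higher (6.25%) of 128 and a median of 0.022. Both of these last shares were under those of all genes, 16.1% lower and 17.2% higher.

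The polymerase I subunit gene POLR1B was at 70.7, 48.4 and 48.1 CPM in the overexpression control and at 112, 116 and 134 CPM in the knockdown control. The log2 difference was -1.11 (SE 0.17, adjusted p = 0.00105). RRN3, which brings polymerase I to the rDNA promoter, was at 85.5 ± 6.80 against 145 ± 13.2 CPM (SD, n = 3), and POLR1E at 29.3 ± 3.15 against 58.6 ± 1.74. POLR1A, the largest subunit, was lower by -0.70 with an adjusted p of 0.0457; without 5 of the 7 libraries, that is without any knockdown control or overexpression control replicate 2 or 3, the call ended (up to 0.139). POLR3A of polymerase III was lower by -0.53 (adjusted p = 0.00687).

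NOLC1, a nucleolar chaperone of small nucleolar ribonucleoproteins, was at 141, 126 and 133 CPM against 329, 288 and 321, a log2 difference of -1.23 (SE 0.175, adjusted p = 0.000751). DKC1, the pseudouridine synthase mutated in dyskeratosis congenita, was at 89.0, 74.7 and 78.3 CPM against 185, 172 and 198. GAR1 of the same complex was at 9.64 ± 0.489 against 22.8 ± 2.19 CPM, and the ATPase RUVBL1, which helps to assemble the particles, at 47.5 ± 3.22 against 100 ± 6.75 (SD, n = 3). NOP56 is uncertain: on Ensembl transcripts it stood at 0, 0.109 and 0.195 CPM against 13.5, 25.1 and 48.0, but with the assembled transcripts of that symbol added its log2 difference was -1.17 in place of -8.05. These reads were thus divided differently between the 2 kinds of transcript in the 2 controls.

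For the small subunit, RCL1, a factor of early pre-rRNA processing (ENSG00000120158, chromosome 9, 4792869 to 4885917), was at 22.6, 17.9 and 17.7 CPM against 41.9, 42.0 and 44.8 (log2 difference -1.15, SE 0.126, adjusted p = 0.000265). EMG1, a methyltransferase of 18S rRNA, was at 51.7 ± 1.06 against 87.1 ± 4.05 CPM, NGDN at 21.3 ± 1.29 against 37.6 ± 2.41 and AATF at 117 ± 7.5 against 189 ± 6.68 (SD, n = 3). Called members of this role ran from -1.5 for LYAR to -0.39 for RRP7A, whose call ended without any of 5 libraries (the 3 knockdown controls and overexpression control replicates 2 and 3; adjusted p up to 0.133). NOP9 was called higher (log2 difference 0.50, adjusted p = 0.0404), but with assembled transcripts added it was at 0.03 (adjusted p = 0.801), and its call ended without overexpression control replicate 1 (0.127) or 3 or any knockdown control.

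For the large subunit, NOC3L (ENSG00000173145, chromosome 10, 94333226 to 94362959), a factor of pre-60S particle maturation and transport, was at 35.7, 31.5 and 36.7 CPM against 89.4, 86.8 and 109 (log2 difference -1.46, SE 0.176, adjusted p = 0.000389). No overexpression control library came near the lowest knockdown control library. PELP1 and SENP3, scaffold and SUMO protease of the rixosome complex, were at 79.5 ± 1.56 against 130 ± 6.42 and at 71.4 ± 0.709 against 108 ± 5.22 CPM (SD, n = 3). NOL8 was at 29.8 ± 1.45 against 63.3 ± 6.80 CPM. WDR55 was the member of this role called higher, at 69.4 ± 6.72 against 49.4 ± 5.12 CPM (SD, n = 3; adjusted p = 0.00960). Of the exosome that trims rRNA ends, EXOSC8, EXOSC2 and EXOSC3 were lower by -1.02, -1.05 and -0.91 on the log2 scale. NCL, for the abundant nucleolar protein nucleolin, was at 258, 207 and 193 CPM against 399, 315 and 311 (adjusted p = 0.0285), a call that ended without knockdown control replicate 1 or overexpression control replicate 2 or 3 (up to 0.101).

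The E-box CACGTG, to which MYC with MAX and other factors can bind, was in 43 of 160 ribosome biogenesis windows (26.9%) against 10.4% of all tested genes. It was in 29 of 94 members called lower (30.9%) and in 14 of 66 other members (21.2%). The gene MYC itself was at 89.2, 63.8 and 78.3 CPM in the overexpression control and at 443, 374 and 415 CPM in the knockdown control, a log2 difference of -2.41 (SE 0.249, adjusted p = 0.000249). Whether the 2 are linked was not tested. The 3 called members with the element and the smallest adjusted p are shown with it in capitals: RCL1 at chr9:4792891-4792973 (plus strand), NOC3L at chr10:94362910-94362977 (minus strand) and PELP1 at chr17:4704317-4704387 (minus strand).
RCL1: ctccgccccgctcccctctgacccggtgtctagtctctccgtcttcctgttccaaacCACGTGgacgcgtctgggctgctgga
NOC3L: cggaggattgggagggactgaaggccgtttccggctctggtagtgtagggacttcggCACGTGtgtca
PELP1: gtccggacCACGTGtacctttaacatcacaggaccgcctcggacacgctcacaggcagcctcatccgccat

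Spliceosome genes were lower to a smaller extent. Of 183 listed genes 180 were tested; 54 were called lower (30%, against 16.1% of all genes) and 3 higher (1.67%, against 17.2%), and the median log2 difference was -0.294. By role, 10 of 21 proteins of the U4/U6 and U5 particles, 8 of 23 of U2 and branch-site factors, 13 of 38 of catalytic and PRP19 complex factors, 12 of 44 hnRNPs and related regulators, 5 of 21 SR proteins and kinases and 6 of 33 Sm, LSm and U1 proteins were lower. The last share, 18.2%, was close to that of all genes. Of the 54, 34 stayed called without any 1 of the 7 libraries. Without overexpression control replicate 1 there were 63 lower and 10 higher members, and the median was -0.285.

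Of the 180 tested members, 5 were called lower by 2-fold or more, beside 4.47% of all genes, so the list did not stand out at that size. SR proteins, which bind exonic enhancers, held 3 of these 5. SRSF7 (ENSG00000115875, chromosome 2, 38743599 to 38751494) was at 36, 36 and 36.8 CPM in the overexpression control and at 104, 96.4 and 111 CPM in the knockdown control, a log2 difference of -1.51 (SE 0.22, adjusted p = 0.000838). SREK1 (ENSG00000153914, chromosome 5, 66139971 to 66183615) was at 50.7, 37.9 and 45.9 CPM against 105, 109 and 133 (log2 difference -1.36, SE 0.154, adjusted p = 0.000299). TRA2A was at 52.4, 27.1 and 25.6 CPM against 87.1, 80.2 and 93.4. SRSF11 and SRSF10 were lower by -0.73 and -0.85. SRPK1, the kinase that phosphorylates SR proteins, was higher at 166 ± 15.9 against 111 ± 11.3 CPM (SD, n = 3; adjusted p = 0.00617).

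In the particles themselves, EFTUD2, the GTPase of the U5 particle, was at 208, 189 and 179 CPM against 322, 332 and 379 (log2 difference -0.84, SE 0.109, adjusted p = 0.000534). PRPF38A was at 32.5 ± 1.65 against 53.4 ± 1.54 CPM, and PRPF6 at 113 ± 5.59 against 152 ± 4.05 (SD, n = 3). Among U1-associated proteins LUC7L2 was lower by -0.76. DDX46, a helicase that acts with U2 at the branch site, was at 94.4, 96.8 and 98.2 CPM against 170, 153 and 173. SF3A1 and PHF5A of the same stage were lower by -0.33 and -0.61, calls that ended without knockdown control replicate 3 for SF3A1 (adjusted p = 0.0748) and without knockdown control replicate 1 or 2 or overexpression control replicate 2 for PHF5A (up to 0.0607).

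In the catalytic group CWC22, which links splicing to the exon junction complex, was at 33.7, 27.9 and 30.8 CPM against 50.4, 51.3 and 61.7, and PLRG1 of the PRP19 complex at 65.7, 51.3 and 43.7 against 92.2, 98.0 and 105. Of the hnRNPs, HNRNPU, a nuclear matrix and chromatin protein, was at 409, 255 and 254 CPM against 716, 630 and 716 (log2 difference -1.17, SE 0.207, adjusted p = 0.00223). TIAL1, QKI and HNRNPM were lower by -0.88, -0.61 and -0.90. The RNA-binding protein gene KHDRBS1 (Sam68) was higher at 254 ± 7.75 against 171 ± 1.05 CPM (SD, n = 3; adjusted p = 0.000751). PCBP1 was called higher at an adjusted p of 0.0470, and the call ended without any 1 of the 6 control libraries (up to 0.167). SNRNP200, the U5 helicase, shows the same uncertainty as NOP56: among the 6 controls its Ensembl transcripts were at 59.7 CPM in knockdown control replicate 2, at 0.117 in replicate 1 and at 0 in the others, and its adjusted p was 0.126. Outside the controls it was at 60.3, 39.9 and 14.3 CPM in the overexpression libraries and at 163, 0 and 3.63 in the knockdown libraries.

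**Figure D2:**
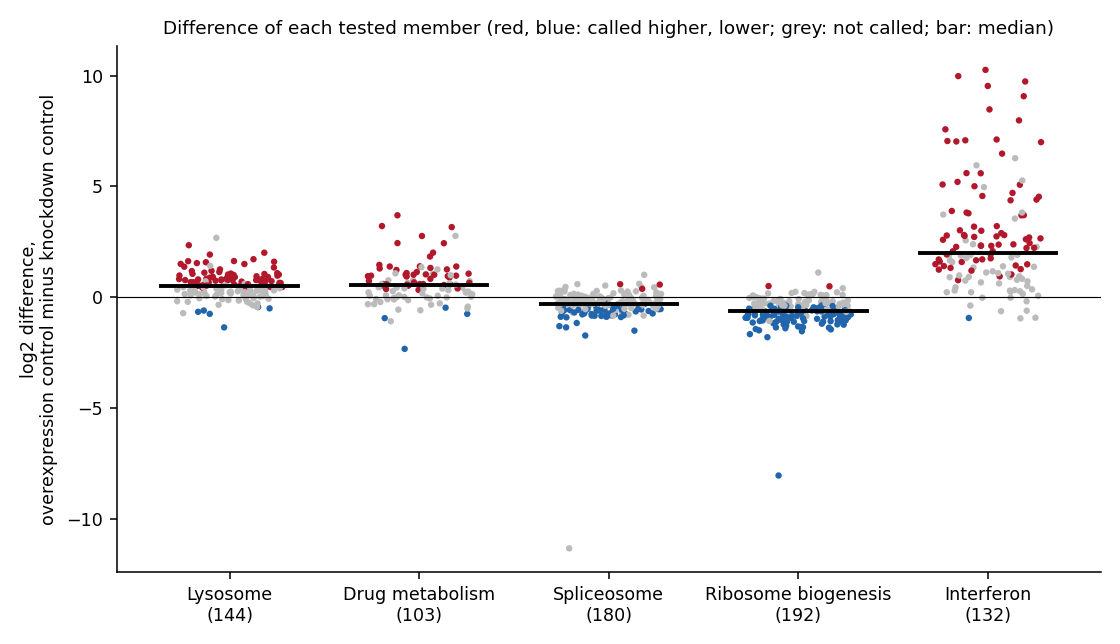
Log2 difference of each tested member of the 5 lists (overexpression control minus knockdown control), with the number of members under each name and the list median as a black bar. Red and blue points passed the test, grey points did not; the medians are 0.495, 0.563, -0.294, -0.609 and 2.0 from left to right, and the points near -8 and -11 are NOP56 and SNRNP200, whose values are uncertain.

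Interferon-related genes showed the largest differences of the 5 lists. The knockdown control had low levels of most antiviral effectors, whereas every overexpression control library had high ones. Of 149 genes listed, 132 were tested; 75 were called higher (56.8%, against 17.2% of all genes), 73 of them by 2-fold or more, and 1 lower (0.758%). For 110 members the 3 and 3 libraries did not overlap, with the overexpression control higher, against 27.3% of all genes. The median log2 difference was 2.0. Of the tested members 25 stayed under an FPKM of 1 in every knockdown control library, and those had passed the filter through other libraries. Among the 107 members that reached an FPKM of 1 in both controls, 56 were higher, 1 was lower and the median was 1.66.

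The count depends on the libraries more than for the other lists. Without overexpression control replicate 1, 51 members were higher, 3 lower and the median was 1.61. Without knockdown control replicate 1, 2 or 3 there were 32, 29 and 32 higher members. Without knockdown replicate 2 there were 105 and with the 6 control libraries alone 104. Knockdown replicate 2 belongs to neither control, but its effectors stood as high as those of the overexpression control, unlike those of the other knockdown libraries, and it enters the shared spread.

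Summed over the 60 tested antiviral effectors, the overexpression control stood at 13300, 8020 and 6030 CPM and the knockdown control at 1740, 1720 and 1660 CPM. Replicate 1 of the overexpression control was the highest, and the lowest of that group was still above the other control. All 75 members called higher were above every knockdown control library in each of the 3 overexpression control libraries. These members were called from the same libraries, so that result is largely set by their selection.

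**Figure D3:**
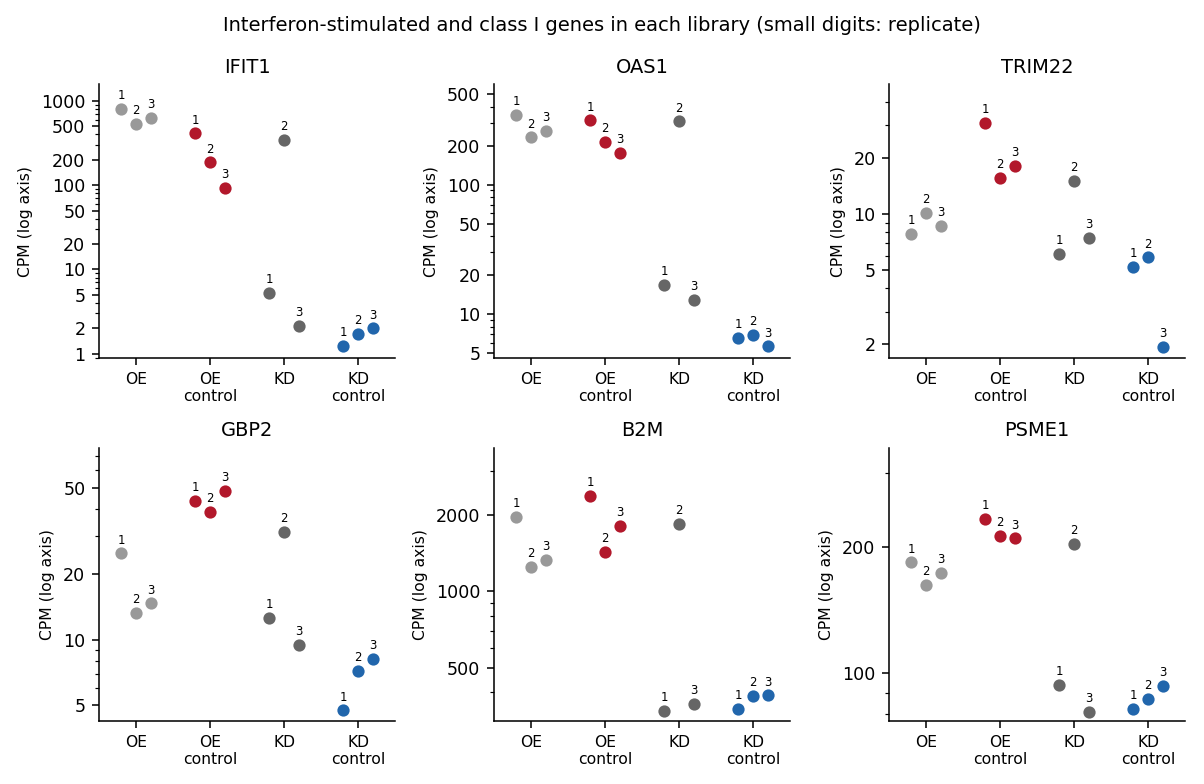
CPM (log axis) of 6 interferon-related genes in each of the 12 libraries: NR0B1 overexpression (OE), its control, NR0B1 knockdown (KD) and its control, with the replicate number above each point. The overexpression control libraries (red) lie above the knockdown control libraries (blue) in all 6 panels, for OAS1 at 314, 214 and 175 against 6.57, 6.88 and 5.62, and knockdown replicate 2 lies above the other knockdown libraries.

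Sensors of viral nucleic acids and innate adaptors came first in the pathway. EIF2AK2, the kinase PKR that senses double-stranded RNA, was at 1070, 926 and 768 CPM in the overexpression control and at 212, 221 and 222 CPM in the knockdown control. The log2 difference was 2.07 (SE 0.433, adjusted p = 0.00496). MYD88, the adaptor of Toll-like receptors, was at 92.0, 61.6 and 41.6 CPM against 19.8, 18.3 and 13.1 (log2 difference 1.93, adjusted p = 0.00238). DDX58, the RNA sensor RIG-I, was at 141 ± 62.8 against 15.2 ± 4.72 CPM, and IFI16 at 187 ± 96.5 against 25.3 ± 1.5 (SD, n = 3). Both calls ended without overexpression control replicate 1 (adjusted p = 0.0513 and 0.0538) and without any 1 knockdown control. DHX58, a co-sensor, was higher by 5.08 (adjusted p = 0.0235; up to 0.0793 without any 1 knockdown control).

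Of the interferon genes themselves, IFNB1 had 29 counts over the 3 overexpression control libraries and 2 over the 3 knockdown control libraries, a ratio of 15.1 with an exact 95% interval from 3.82 to 130 that covers counting error only; its adjusted p was 0.135. Of 26 tested interferon, receptor and signalling genes, 6 were called higher (23.1%) and 1 lower (3.85%), against 17.2% and 16.1% of all genes. Of the 6, 0 stayed called without any 1 of the 7 libraries. The single calls are therefore not read as a result about this role as a group. Of the transcription factors that answer type I interferon, STAT2 was at 209, 171 and 123 against 28.3, 37.4 and 30.5, and IRF9 at 136, 116 and 92.9 against 18.7, 18.0 and 15.6. Both were called higher (adjusted p = 0.0143 and 0.0185). The STAT2 call ended without knockdown control replicate 1 or 3 (up to 0.0529) and the IRF9 call without any 1 knockdown control (up to 0.0649). IRF7, which is itself induced by interferon, was at 58.6 ± 28.2 against 4.14 ± 0.659 CPM (SD, n = 3; adjusted p = 0.0201; up to 0.0671 without any 1 knockdown control). IFNGR1, a receptor chain for interferon gamma, was higher by 1.66 (adjusted p = 0.0246), but by 0.98 without overexpression control replicate 1 (0.0985), and the call also ended without any 1 knockdown control. IRF3, which is present before infection, was at 119, 120 and 117 CPM against 105, 109 and 107 with an adjusted p of 0.368. SOCS3, a feedback inhibitor of JAK signalling, was the 1 member called lower, at 25.5, 43.4 and 42.0 CPM against 75.5, 66.5 and 70.8 (log2 difference -0.94, SE 0.18, adjusted p = 0.00320).

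Effectors with the smallest adjusted p were ZC3HAV1, the zinc finger antiviral protein, at 192, 173 and 116 CPM against 45.7, 39.1 and 41.4 (log2 difference 1.93, SE 0.227, adjusted p = 0.000362), and TRIM34 (ENSG00000258659, chromosome 11, 5619764 to 5644398), a restriction factor of retroviral capsids, at 45.3, 48.1 and 38.8 against 7.86, 7.89 and 5.88 (log2 difference 2.61, SE 0.431, adjusted p = 0.00152). TRIM22 was at 21.6 ± 8.18 against 4.35 ± 2.11 CPM and ADAR, the RNA-editing deaminase, at 967 ± 137 against 345 ± 12.8 (SD, n = 3). OAS1, which makes the activator of RNase L (ENSG00000089127, chromosome 12, 112906777 to 112933222), was at 314, 214 and 175 CPM against 6.57, 6.88 and 5.62 (log2 difference 5.20, SE 1.12, adjusted p = 0.00634). IFIT1, which binds viral RNA caps, was at 413, 186 and 93.3 CPM against 1.23, 1.72 and 2.0. The calls of these 6 genes held without any 1 of the 7 libraries; for IFIT1 the adjusted p reached 0.0480.

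The calls of 2 other classical effectors depended on single libraries. MX1, a GTPase that blocks influenza virus, was at 413, 293 and 146 CPM against 1.58, 2.19 and 2.84 (adjusted p = 0.0159). The ubiquitin-like modifier gene ISG15 was at 237, 151 and 98.3 CPM against 3.64, 2.85 and 3.52 (adjusted p = 0.0174). Both were higher in every overexpression control library, and both calls ended without any 1 knockdown control, at adjusted p up to 0.0589 and 0.0619. Of the 42 effectors called higher 17 stayed called without any 1 of the 7 libraries.

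Some guanylate-binding proteins and most class I antigen presentation genes were called higher too. Of 15 tested chemokines and guanylate-binding proteins, 8 were called higher (53.3%, against 17.2% of all genes) and 0 lower. Of these 8 calls, 3 held without any 1 of the 7 libraries. Among the 10 members that reached an FPKM of 1 in both controls, 3 were called higher and the median log2 difference was 0.85. GBP2 was at 43.4, 38.7 and 48.4 CPM against 4.75, 7.18 and 8.19 (log2 difference 2.69, SE 0.427, adjusted p = 0.00124), and GBP3 at 61.2 ± 10.6 against 13.1 ± 2.05 CPM (SD, n = 3). GBP4 was at 17.2 ± 1.82 against 0.722 ± 0.146 (adjusted p = 0.0159; up to 0.0599 without any 1 knockdown control). Of 17 class I members 14 were called higher (82.4%, against 17.2% of all genes) and 0 lower. Of the 14, 6 stayed called without any 1 of the 7 libraries. Without overexpression control replicate 1, 11 class I members were called higher. B2M, the light chain of class I molecules (ENSG00000166710, chromosome 15, 44711487 to 44718877), was at 2390, 1430 and 1820 CPM against 345, 388 and 389 (log2 difference 2.33, SE 0.564, adjusted p = 0.00990). PSME1, an activator of the immunoproteasome, was at 234, 213 and 210 against 82.4, 87.0 and 93.4. NLRC5, the transactivator of class I genes, was at 51.6 ± 24.2 against 7.39 ± 2.24 CPM (SD, n = 3; adjusted p = 0.0103).

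The interferon-stimulated response element, searched on both strands as GAAA, any 2 bases and GAAA, was in 49 of 98 windows of tested members (50%) against 2.88% of all tested genes. It was in 32 of 54 members called higher (59.3%) and in 17 of 44 others (38.6%). The 3 called members with the element and the smallest adjusted p are shown with it in capitals, read along the gene; in TRIM34 (chr11:5624856-5624975, plus strand) and PSME1 (chr14:24136144-24136223, plus strand) it lies on the opposite strand, and in MYD88 (chr3:38138545-38138664, plus strand) on that of the gene.
TRIM34: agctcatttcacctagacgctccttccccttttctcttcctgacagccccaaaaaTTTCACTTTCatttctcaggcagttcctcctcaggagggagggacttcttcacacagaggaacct
MYD88: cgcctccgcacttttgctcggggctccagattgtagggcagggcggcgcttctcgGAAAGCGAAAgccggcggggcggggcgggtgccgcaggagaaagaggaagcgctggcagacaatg
PSME1: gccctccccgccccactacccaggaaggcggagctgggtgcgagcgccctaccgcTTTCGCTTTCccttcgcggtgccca

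Ranked by size among called genes without overlap whose higher control averaged at least 5 FPKM, 7 of the 10 leading genes of the overexpression control were interferon effectors (IFI27, IFI44L, XAF1, OAS2, IFITM1, BST2 and IFI6). IFI6 stood at 352, 224 and 195 CPM against 1.47, 1.19 and 1.37, and OAS2 at 403, 152 and 91.7 against 0.235, 0.297 and 0.315. The calls of IFI6, OAS2, IFI27 and BST2 ended without any 1 knockdown control (adjusted p up to 0.0565, 0.0562, 0.0582 and 0.0588), that of IFITM1 without knockdown control replicate 2 or 3 (up to 0.0605), and that of XAF1 without any 1 knockdown control or overexpression control replicate 1 or 3 (up to 0.129). TNFSF10, the death ligand TRAIL, had 695 counts in the overexpression control and 1 in the knockdown control, a ratio of 723 with an exact 95% interval from 129 to 28600. SERPINB3, a squamous-cell serpin outside the interferon list, had 1067 counts against 2 (ratio 555, interval 153 to 4590), and the elastase inhibitor gene PI3 had 183 against 1 (ratio 190, interval 33.7 to 7560).

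The largest falls besides NOP56 were of another kind. KCNH1, a voltage-gated potassium channel, was at 8.52, 2.51 and 3.45 CPM in the overexpression control against 62.3, 64.5 and 79.0 in the knockdown control. ANKRD1, a YAP target, was at 2.73, 5.73 and 6.64 CPM against 75.1, 64.7 and 60.4, and GREM1, a secreted BMP antagonist, at 0.699, 5.52 and 4.81 against 27.1, 26.8 and 36.2. RAB39B, a small GTPase of membrane traffic, and DLC1, a tumour suppressor, were lower by -3.48 and -2.69 on the log2 scale. The histone genes HIST1H1T, HIST1H2AE and HIST1H2AL were lower by -4.37, -3.40 and -2.77.

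**Figure D4:**
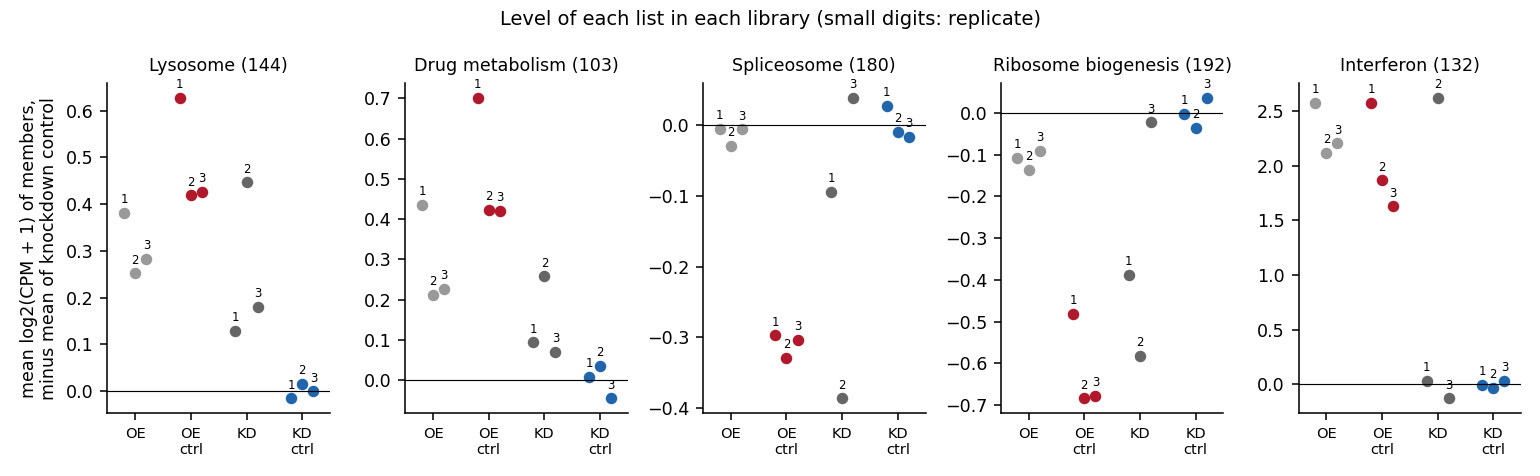
Mean log2(CPM + 1) over the tested members of each list in each library, minus the mean of the 3 knockdown control libraries; OE is NR0B1 overexpression, KD knockdown, ctrl their controls, small digits the replicate. The overexpression control lies between 0.419 and 0.627 for lysosome and between 0.421 and 0.701 for drug metabolism, between -0.329 and -0.297 for spliceosome, between -0.684 and -0.481 for ribosome biogenesis and between 1.63 and 2.57 for interferon, and knockdown replicate 2 lies apart from knockdown replicates 1 and 3 in most panels.

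Overexpression control replicate 1 was the most distant of its group from the knockdown control for lysosome, drug metabolism and interferon genes and the nearest for ribosome biogenesis genes, as the plot of list levels shows. For spliceosome genes the 3 replicates lay between -0.329 and -0.297. Leaving replicate 1 out kept the sign of each list's median. Its omission moved the drug metabolism median from 0.563 to 0.378 and the interferon median from 2.0 to 1.61. Calls of lysosome genes went from 72 to 66 higher, of drug metabolism from 46 to 45, of ribosome biogenesis from 113 to 123 lower and of spliceosome from 54 to 63 lower, beside 36.8% of all genes (17.9% higher and 18.9% lower).

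**Figure D5:**
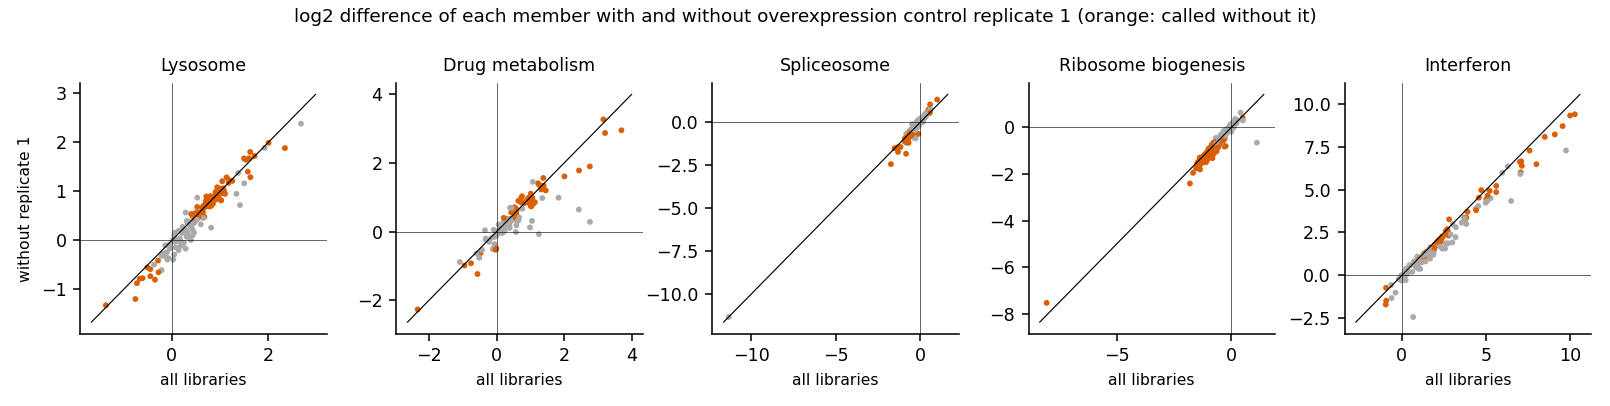
Log2 difference of each tested member with all libraries (x axis) and without overexpression control replicate 1 (y axis), 1 panel per list, with the line of equality; orange points were called without it. Most points lie near the line; interferon members fall below it, with a median of 1.61 in place of 2.0, as do some drug metabolism members.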

How the data were processed

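RNA sequencing measured transcripts in 12 A549 libraries, 4 groups of 3. The authors deposited expected counts and FPKM values per transcript, per the file headers; the submitters' processing notes list RSEM, StringTie 1.3.1, Bowtie2 2.2.8, HISAT2 2.0.5 and fastp. As builds they list GRCm38 and mm10, both of mouse, although the identifiers are human; coordinates are from GENCODE 29 (GRCh38). Strandedness is not given in the sources used here. Of 96247 rows, 82270 with Ensembl identifiers were summed per symbol to 19647 genes and rounded; 184 symbols that had become dates were restored. The 13977 assembled (TCONS) rows, between 13.3% and 14.8% of control counts, were left out.

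Genes that reached 1 FPKM in at least 3 libraries were tested (11908) with edgeR 4.0.16 in R 4.3.3 (quasi-likelihood, robust, TMM), all 12 libraries in 1 fit, 8 residual degrees of freedom, Benjamini-Hochberg adjustment. The biological coefficient of variation was 24.5%. SE is the absolute log2 difference divided by the square root of F. Alternatives were DESeq2 1.42.0, limma 3.58.1 on log2(FPKM + 1) and on log2(FPKM + 0.1), other scalings, filters and samples. On simulated data (11908 genes, 200 of them changed), 6.1%, 45.8% and 87.1% of genes changed by 1.5-fold, 2-fold and 4-fold were recovered, with 3 false calls. The simulation held far fewer changed genes than the 3973 called here, and no library that stood apart. Its recovery and false calls therefore need not hold for these data. Intervals and count floors cover counting error only.

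The groups, lists and members were chosen with earlier results of these data known. Named are NR0B1; the 10 called genes with the greatest difference in each direction, without overlap and averaging at least 5 FPKM in the higher control; up to 4 called members per role and direction by smallest adjusted p; members that complete counts of 5 or fewer; and up to 3 called members per motif. Not every gene the rule takes is named. OAS1, ISG15, MX1, IFIT1, IFNB1, IRF3, CTSD, LAMP1, TFEB, ALDH3A1, NQO1, DKC1, NCL, POLR1A, SNRNP200, MYC, CDH1, KRT7, CD14, ESAM, ABCA3, AKR1B10 and the genes of the closing section were added after their values were seen, as were the ends of ranges.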

Additional observations from a re-analysis of the deposited data

Results flagged for a closer look

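A signal appeared in libraries outside the comparison, which belong to neither control. Summed over the same 60 antiviral effectors, knockdown replicate 2 stood at 13800 CPM, while knockdown replicates 1 and 3 stood at 2010 and 1930 CPM; each was above the highest knockdown control library (1740 CPM). In knockdown replicate 2 all 75 interferon members called between the controls exceeded every knockdown control library, against 48 and 28 in knockdown replicates 1 and 3. These members were called partly for being low in the knockdown control, so the selection favours such counts. The share over all genes is not given, and the counts are not read as a signal in knockdown replicates 1 and 3. NR0B1 overexpression replicate 1 stood at 15800 CPM, above the highest overexpression control library (13300 CPM), and replicates 2 and 3 of that group at 11000 and 12400 CPM. No cause of these levels was tested.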

How the results depend on the processing

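Libraries of the 2 controls with the same replicate number had correlations of deviations from their group means of -0.054, 0.007 and -0.02. Pairs with different numbers ran from -0.103 to 0.107. With 3 libraries per group, these values cannot show whether same-numbered libraries shared a culture or batch, and no labels used here say so. With the replicate block 3680 genes were called in place of 3973, and NR0B1 differed by 1.31. Leaving out 1 library in turn gave 2560 to 4920 called genes (lowest without knockdown control replicate 3) and 991 to 1586 called by 2-fold or more. It gave 59 to 78 higher and 2 to 11 lower lysosome genes, 31 to 50 higher and 3 to 7 lower drug metabolism genes, 2 to 10 higher and 40 to 75 lower spliceosome genes, 1 to 2 higher and 86 to 130 lower ribosome biogenesis genes and 29 to 105 higher and 1 to 3 lower interferon genes. NR0B1 ran from 1.11 to 1.77. With limma on log2(FPKM + 1), 877 genes were called by 2-fold or more, and 40.2% of called genes were higher, against 51.6% in edgeR. Spliceosome genes called higher were 8 with DESeq2 and 5 with TCONS rows added; drug metabolism genes called lower were 7 with the 6 controls alone. Ribosome biogenesis genes called higher were 1 with either limma setting, without a filter, with filterByExpr, with the 6 controls and with TCONS rows. Interferon genes called lower were 4 with DESeq2, 3 with either limma setting and TCONS rows, and 2 with RLE scaling, the 6 controls and the replicate block. Of 2 settings chosen after seeing the data, the fit without overexpression control replicate 1 and knockdown replicate 2 gave 11 lower lysosome, 10 lower drug metabolism, 20 higher and 83 lower spliceosome and 6 lower interferon genes. The fit on controls without overexpression control replicate 1 gave 6347 called genes, 15 lower lysosome, 10 lower drug metabolism, 19 higher and 86 lower spliceosome, 6 higher ribosome biogenesis and 5 lower interferon genes. The cause was not tested. Of a set of 171 genes, which leaves out MCM5, MCM6 and some others named in the text, 166 were called. Of these, 39 lost the call without at least 1 of 7 libraries, and 0 changed sign in any of 18 alternatives.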

Other observations

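Genes of amino acid synthesis, uptake and tRNA charging that the transcription factor ATF4 induces were lower in the overexpression control. Of 37 tested, 22 were called lower (59.5%, against 16.1% of all genes) and 1 higher, with a median log2 difference of -0.974. CBS, the first enzyme of transsulfuration, was at 32.1, 22.0 and 17.8 CPM against 101, 94.9 and 95.2 in the knockdown control (log2 difference -2.02, adjusted p = 0.000389). ASNS, which makes asparagine, was at 192, 97.4 and 92.3 CPM against 340, 345 and 394, and SLC7A5, an amino acid exchanger, at 1770, 535 and 483 against 3070, 3120 and 3060. Overexpression control replicate 1 was the nearest of its group to the knockdown control for these 3 genes, and without it 31 of 37 were lower. CTH, the second enzyme of transsulfuration, was the member called higher (log2 difference 1.09, adjusted p = 0.0191; up to 0.0788 without knockdown control replicate 1 or 3 or overexpression control replicate 3).

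Of 29 early response genes tested, 16 were called lower (55.2%, against 16.1% of all genes) and 3 higher (10.3%, against 17.2%). JUN was at 66.8, 32.9 and 48.2 CPM against 278, 247 and 293, and the YAP targets CYR61 and CTGF were lower by -2.58 and -2.29 on the log2 scale. NR4A1, an orphan nuclear receptor, was higher at 52.6 ± 13.8 against 7.09 ± 0.751 CPM (SD, n = 3; adjusted p = 0.00156), and DUSP4, a MAP kinase phosphatase, at 950 ± 121 against 426 ± 9.56. Of 36 proliferation genes 5 were called higher (13.9%, against 17.2% of all genes) and 2 lower (5.56%, against 16.1%). PCNA, the replication clamp, was at 724, 851 and 816 CPM against 189, 200 and 187, a log2 difference of 2.05 (SE 0.096, adjusted p = 2.3e-06), while the median of these genes was -0.078. The 2 called lower, MCM5 and MCM6, differed by -1.28 and -1.05 (adjusted p = 0.00948 and 0.0407). The MCM6 call ended without any 1 of the 6 control libraries (up to 0.123). Of the 5 called higher, 1 stayed called without any 1 of the 7 libraries, namely PCNA.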
